A study of Mus musculus with 38 samples.

Results

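The T cell receptor loci of the mouse were described here by ChIP-seq peaks, the stretches of chromatin that an antibody against a DNA-bound protein enriches. A peak was counted when its centre lay in 1 of 3 fixed windows of the mm10 genome build. The Tcra/Tcrd window on chromosome 14 is 1.9 Mb long and runs from 27.9 kb before Trav1 (start 52427928) to 75.8 kb after Trac (end 54224206), past Dad1. The Tcrb window on chromosome 6 is 0.75 Mb long, from 41.2 kb before Trbv1 (start 40891229) to 41.5 kb after Trbv31 (end 41558452), and the Tcrg window on chromosome 13 is 0.25 Mb long, from 28.0 kb before Tcrg-V7 (start 19178024) to 47.2 kb after Tcrg-C4 (end 19352756). Together they cover 2.9 Mb and held 975 of the 359759 peaks in 17 lists. All 270 T cell receptor gene segments of the GENCODE M21 annotation lay in them, 202 in Tcra/Tcrd, 53 in Tcrb and 15 in Tcrg. Where peaks of several lists overlapped they were joined into 1 site, which gave 166 sites in Tcra/Tcrd, 64 in Tcrb and 31 in Tcrg. A distance in kb between a segment and a named site or peak is to the middle of the joined site. Counts of V segments with a peak within 1 kb use the centre of the peak itself, so the 2 can differ slightly.

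The study asked how the binding of RUNX1 and its partners changes when lymphoid progenitors receive a Notch signal. All groups were Cas9-LP cells, a cell line from fetal liver progenitors that lack Ebf1, a B cell factor, and carry Cas9 at Rosa26, so the controls share both alleles. LP cells were grown on OP9 stroma, and Phase 1 and Phase 2 cells on OP9-DLL4, stroma that presents the Notch ligand DLL4; all had SCF, Flt3L and IL-7 in the medium. LP and Phase 1 cells were mapped for RUNX1, CTCF, Med12 and p300, and Notch1-IC, the intracellular part of Notch1, was mapped at all 3 stages. Retroviral single guide RNAs gave LP cells with control guides (sgCont) or guides against Ctcf (sgCTCF), with RUNX1 mapped. Phase 1 cells had sgCont or guides against Cbfb (sgCbfb) with Med12 mapped, or sgCont or guides against Med12 (sgMed12) with RUNX1 mapped. Per the study's methods, the guide vectors for each gene were pooled.

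Each list combines 2 replicates, so no difference between lists can be set against the spread between replicates, and no test was made. Shares are given with exact (Clopper-Pearson) 95% intervals, which cover counting error only, beside the share over the whole list. The score is a depth-normalised peak height. Lists were compared by the place of a peak, counted from the highest score, or by the share of the list at or above it ("top 1%"). Scores from 2 lists are also printed side by side, and such pairs are not to be read as fold changes. Read depth is unknown from these files. The lists differ in size, from 30020 to 49116 peaks in the 8 lists of cells without guides other than Notch1-IC, from 152 to 1585 for Notch1-IC, and from 874 to 2094 for RUNX1 in cells with guides, against 19053 and 18099 for Med12 in cells with guides.

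A T cell receptor chain is assembled in developing T cells from separate V, sometimes D, and J segments, which the RAG recombinase joins and which are spliced to a constant (C) segment. Each locus has an enhancer near its C segments that acts on transcription and on recombination: one between Trac and Dad1 for Tcra, one between the J and C segments of Tcrd, one between Trbc2 and Trbv31 for Tcrb, and related elements after the C segments of Tcrg. RUNX1 binds DNA with its partner CBFβ, the product of Cbfb, and is known to act at such enhancers. CTCF is a zinc finger protein that anchors chromatin loops in a direction set by the strand of its motif; Med12 belongs to the kinase module of the Mediator complex, which links enhancers to RNA polymerase II, and p300 is a histone acetyltransferase found at active enhancers. Notch1-IC acts in the nucleus with the DNA-binding protein RBPJ.

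The sequences under the strongest Phase 1 RUNX1 peak in each enhancer interval are shown because most results below turn on these 7 sites. Each is 200 bases around the peak centre, from the plus strand of GRCm38.p6, the NCBI name of mm10, and none lies in an exon. Capitals mark the RUNX string TGTGGT or its reverse complement. The sites lie at chr14:54227491-54227690, chr14:54138349-54138548, chr6:41554461-41554660, chr13:19219702-19219901, chr13:19272844-19273043, chr13:19300736-19300935 and chr13:19356263-19356462, in the order printed.
Tcra enhancer site: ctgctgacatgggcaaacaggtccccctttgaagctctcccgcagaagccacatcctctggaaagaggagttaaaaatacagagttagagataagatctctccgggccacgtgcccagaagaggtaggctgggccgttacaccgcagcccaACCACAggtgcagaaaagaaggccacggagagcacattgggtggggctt
site before Trdc: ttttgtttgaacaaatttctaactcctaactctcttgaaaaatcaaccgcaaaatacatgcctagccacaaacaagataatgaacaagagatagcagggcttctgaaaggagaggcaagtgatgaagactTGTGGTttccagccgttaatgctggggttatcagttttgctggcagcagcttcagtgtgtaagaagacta
Tcrb enhancer site: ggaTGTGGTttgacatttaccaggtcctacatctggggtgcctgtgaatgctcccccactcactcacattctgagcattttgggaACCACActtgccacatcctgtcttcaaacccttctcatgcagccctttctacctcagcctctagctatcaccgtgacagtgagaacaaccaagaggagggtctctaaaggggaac
site after Tcrg-C1: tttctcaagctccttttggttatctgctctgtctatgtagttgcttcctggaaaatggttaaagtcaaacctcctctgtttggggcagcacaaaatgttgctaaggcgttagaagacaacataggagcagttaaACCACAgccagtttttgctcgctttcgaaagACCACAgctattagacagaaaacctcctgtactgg
site after Tcrg-C3: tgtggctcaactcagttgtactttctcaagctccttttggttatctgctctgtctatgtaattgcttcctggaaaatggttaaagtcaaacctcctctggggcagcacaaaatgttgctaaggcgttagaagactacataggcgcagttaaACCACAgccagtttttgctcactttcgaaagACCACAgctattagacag
site after Tcrg-C2: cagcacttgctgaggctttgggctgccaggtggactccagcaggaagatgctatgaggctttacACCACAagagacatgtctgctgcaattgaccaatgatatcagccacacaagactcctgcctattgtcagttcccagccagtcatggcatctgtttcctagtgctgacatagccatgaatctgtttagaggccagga
site after Tcrg-C4: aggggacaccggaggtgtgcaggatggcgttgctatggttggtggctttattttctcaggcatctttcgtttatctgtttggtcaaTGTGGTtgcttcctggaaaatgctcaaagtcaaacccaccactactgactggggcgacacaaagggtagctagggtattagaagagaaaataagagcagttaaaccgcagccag
The Tcrb site and the sites after Tcrg-C1 and Tcrg-C3 hold the string 2 times, and each of the other 4 holds it 1 time. The Tcrg sites are related in sequence. In windows of 500 bases the sites after Tcrg-C1 and Tcrg-C3 aligned over 479 bases at 98.7% identity, and the site after Tcrg-C2, which lies in the opposite direction, aligned to that after Tcrg-C1 over 253 bases at 99.2%. The site after Tcrg-C4 was the most distant, with 81.1% over 185 bases against Tcrg-C1. Reads from the 3 near-identical copies may not all be told apart.

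The loci carried more peaks per Mb than the genome as a whole in each of the 8 lists of RUNX1, CTCF, Med12 and p300. LP RUNX1 had 31.0 peaks per Mb in the windows against 11.7 per Mb over the genome, and Phase 1 RUNX1 had 35.9 against 14.1. CTCF had 38.3 in LP against 16.7, and 37.9 in Phase 1 against 16.4. The immunoglobulin loci, the matching loci of B cells, had 10.5 LP RUNX1 peaks per Mb over the span of their annotated segments. That span takes in 27.8 Mb of chromosome 6, because 2 segments are annotated far from the kappa locus. Without these 2 the chromosome 6 span is 3.27 Mb, and the loci had 17.6 LP RUNX1 peaks per Mb. CTCF then had 26.1 per Mb in LP and 23.2 in Phase 1. The peaks were not evenly spread: Tcrg had 60 LP RUNX1 peaks per Mb and Tcra/Tcrd had 26.8. In the map of peaks by list, most CTCF and RUNX1 peaks of Tcra/Tcrd and Tcrb lay among the V segments. None lay in the 3 stretches without peaks described below. The V stretch of Tcra/Tcrd, 1683 kb long, held 70 of 76 LP CTCF peaks and 41 of 51 LP RUNX1 peaks. From Trbv2 to Trbv30 the counts were 20 of 27 and 20 of 24 of the Tcrb peaks. The highest-placed RUNX1, Med12 and p300 peaks sat at the C ends and at Trbv1. The highest-placed CTCF peak also lay at a C end, between Trac and Dad1.

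The site between Trac and Dad1 (chr14:54227344-54227754, intergenic, 7.03 kb after the start of Trac) was among the highest-placed peaks of the whole genome. In LP it held place 2 of the RUNX1 list (score 982.8), place 2 of Med12 (1026.5) and place 1 of p300 (2785.7). In Phase 1 it held place 4 for RUNX1 (939.1), place 7 for Med12 (694.3) and place 3 for p300 (1587.3). No CTCF peak overlapped it, but the highest CTCF peak of all 3 loci followed it directly, at chr14:54227977-54228377 in LP, with a score of 563.7 and place 35, and with 807.4 and place 25 in Phase 1. A weaker site 12.96 kb after the start of Trac had RUNX1 scores of 127.2 in LP and 152.1 in Phase 1. Thus the Tcra enhancer interval was occupied by RUNX1, Med12 and p300 in both stages, at the top of each list.

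The Tcrd D, J and C stretch differed between stages. The site 2.18 kb before Trdd1 (chr14:54111083-54111499) and that 0.131 kb before Trdd2 had RUNX1 peaks in both stages, with scores of 128.6 and 91.4 in LP and of 181.8 and 99 in Phase 1. The site between Trdj2 and Trdc (chr14:54138284-54138643, in an intron of Gm43434) had RUNX1, Med12 and p300 peaks in Phase 1, with scores of 78.2, 66.0 and 111.0, and no peak of any list in LP. Along the 75.3 kb from the end of Trdc to the end of Trac, which holds the J segments of Tcra, the picture was the opposite. There LP had 4 RUNX1, 3 Med12 and 5 p300 peaks, and Phase 1 had 0, 1 and 2. CTCF had 3 peaks there in LP and 4 in Phase 1. The 4 LP RUNX1 peaks lay at Traj49 (score 64.5), Traj42 (22.1), Traj37 (33.6) and 0.646 kb before Trac (62.1), and those at Traj49 and Traj42 overlapped CTCF peaks of both stages.

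At Tcrb 2 sites stood out within the lists. The site between Trbc2 and Trbv31 (chr6:41554344-41554935, intergenic) had RUNX1 scores of 283.6 in LP (place 574) and 517.8 in Phase 1 (place 73). Its Med12 place went from 734 to 18 and its p300 place from 600 to 129. The site at the start of Trbv1, a V segment set apart from the others at the far end of the locus (chr6:40890998-40891390), had RUNX1 places of 814 in LP and 123 in Phase 1, Med12 places of 430 and 17, and p300 places of 141 and 37. Both sites thus lay higher in the Phase 1 list of each of these 3 factors. A site 0.126 kb before Trbd1 had RUNX1 (25.3), Med12 (37.5) and p300 (33.2) peaks in Phase 1 and none in LP, and the site 0.179 kb before Trbd2 had RUNX1 scores of 18.3 in LP and 82.0 in Phase 1. Among the V segments, the site 0.496 kb before Trbv10 had RUNX1 scores of 26.0 and 164.2, and that 0.672 kb after the start of Trbv12-1 had 20.0 and 146.2.

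At Tcrg each of the 4 C segments had a RUNX1 site after it in both stages. The site after Tcrg-C4 (chr13:19356177-19356726, intergenic, before Stard3nl) was the highest, with a RUNX1 score of 408.0 in LP (place 119) and 586.1 in Phase 1 (place 38). The sites after Tcrg-C1, Tcrg-C3 and Tcrg-C2 had LP scores of 98.9, 38.7 and 104.3 and Phase 1 scores of 179.8, 90.9 and 195.6. All 4 also had Med12 and p300 peaks in both stages. A site between Tcrg-V7 and Tcrg-V4 (LP RUNX1 peak at chr13:19182298-19182638) had RUNX1 scores of 122.3 in LP and 165.5 in Phase 1. Its Med12 scores were 119.3 and 157.7, and its p300 scores were 210.4 and 196.9. Next to the J segments, sites 0.342 kb before Trgj1 and 0.286 kb before Trgj2 had RUNX1 peaks in both stages, and 2 sites 1.61 and 0.31 kb before Trgj3 had them in Phase 1, with scores of 34.2 and 28.2, and not in LP.

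Peaks in 1 stage only were more frequent for RUNX1, Med12 and p300 than for CTCF, at the loci as over the whole lists. For RUNX1, 21 of the 90 LP peaks had no Phase 1 peak (23.3%, interval 15.1 to 33.4), against 16.8% of the list, and 35 of the 104 Phase 1 peaks had no LP peak (33.7%, 24.7 to 43.6), against 30.7%. For CTCF the counts were 8 of 111 (7.21%, 3.16 to 13.7) in LP and 7 of 110 (6.36%, 2.6 to 12.7) in Phase 1, against 9.55% and 8.35%. For Med12 they were 26 of 90 (28.9%, 19.8 to 39.4) and 35 of 99 (35.4%, 26.0 to 45.6), against 19.5% and 38.2%. For p300 they were 40 of 122 (32.8%, 24.6 to 41.9) and 39 of 121 (32.2%, 24 to 41.3), against 20.7% and 41.6%. The RUNX1, CTCF and Phase 1 Med12 intervals included the share of their list. The LP shares of Med12 and p300 lay above it and the Phase 1 share of p300 just below it. With scores of at least 30 in both lists, the LP share was 19.0% for Med12, against 18.7% of the list, and 2.15% for CTCF, against 6.66%. The Phase 1 share was then 46.4% for RUNX1, against 24.6% of the list, 50% for Med12, against 30.7%, and 41.9% for p300, against 35.9%. Which shares stood apart from their list thus depended on the score minimum.

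**Figure D1:**
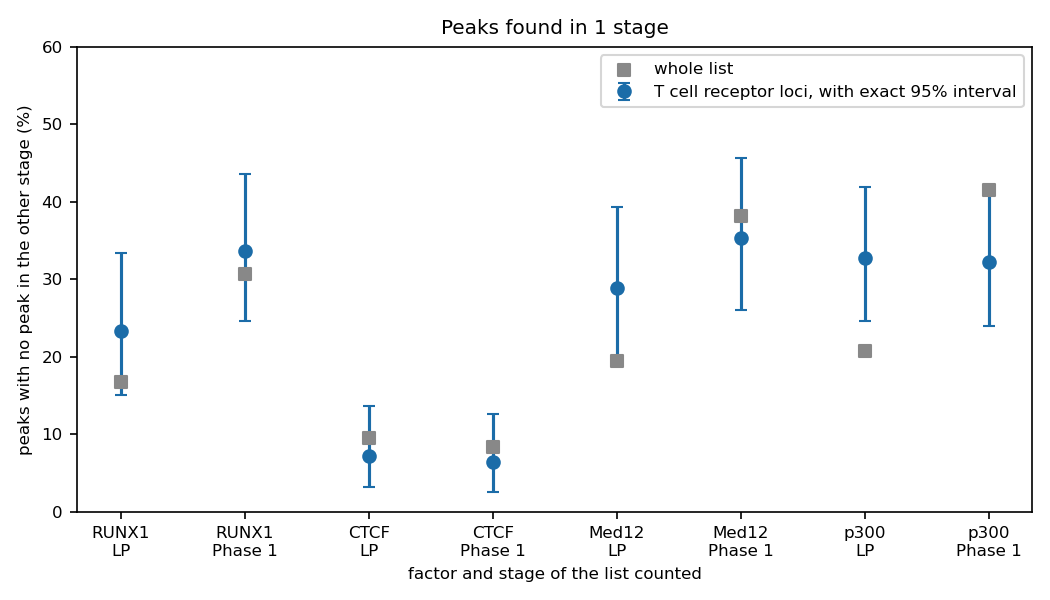
Percent of the peaks of each factor and stage with no overlapping peak in the other stage, for the T cell receptor loci (circles, bars are exact 95% intervals) and for the whole list (squares). The squares lie inside the bars for RUNX1 and CTCF, and LP p300 stands at 32.8% against 20.7%.

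Partners were counted at the RUNX1 peaks of 1 stage. Of the 21 RUNX1 peaks found in LP only, 12 overlapped an LP CTCF peak (57.1%, 34.0 to 78.2), against 36.8% of such peaks over the list, a share inside the interval. An LP Med12 peak overlapped 15 of the 21 (71.4%, 47.8 to 88.7), against 61.9%, and an LP p300 peak 20 (95.2%, 76.2 to 99.9), against 76%. Of the 35 found in Phase 1 only, 1 overlapped a Phase 1 CTCF peak (2.86%, 0.0723 to 14.9), against 6.96%, and 27 overlapped a Phase 1 Med12 peak (77.1%, 59.9 to 89.6), against 75%, and 28 a Phase 1 p300 peak (80%, 63.1 to 91.6), against 79.6%. The LP-only peaks on CTCF besides Traj49 included a peak 14.9 kb before Trdv4 (score 42.7), 1 in a Dad1 intron 18.7 kb after the start of Trac (27.5), and peaks at Trdv3 (16), Trav12-3 (21.4), Trbv12-1 (16.7) and Trbv12-2 (28.0). In these named cases CTCF had a peak in both stages. The Phase 1-only peaks with the highest scores lay between Trdj2 and Trdc (78.2), 21.9 kb after the start of Trdv1 (63.5), 5.35 kb after B230359F08Rik, annotated as a V segment (63.0), and 1.04 kb before Trbv19 (54.8). In all, 9 sites had RUNX1, Med12 and p300 in LP and none of them in Phase 1, 6 of them with LP CTCF. Another 13 sites had all 3 in Phase 1 and none in LP. Such sites were not counted over the whole lists, so these counts do not show whether the loci differ from the genome.

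Over all RUNX1 peaks at the loci, 25 of 90 in LP overlapped CTCF (27.8%, 18.9 to 38.2), against 23.2% of the list, and 13 of 104 in Phase 1 (12.5%, 6.83 to 20.4), against 15.7%. Among LP RUNX1 peaks with a score of at least 30 the share at the loci was 4 of 47 (8.51%, 2.37 to 20.4), against 23.5% of the list, so the CTCF overlap of the loci rested on low-scored RUNX1 peaks. Med12 overlapped 76 of 90 LP peaks (84.4%, 75.3 to 91.2), against 84.7%, and 89 of 104 Phase 1 peaks (85.6%, 77.3 to 91.7), against 86%. For p300 the counts were 86 of 90 (95.6%, 89.0 to 98.8), against 90.8%, and 91 of 104 (87.5%, 79.6 to 93.2), against 87.8%. Among all sites of the loci, 54 had RUNX1, Med12 and p300 in both stages, and 65 had CTCF in both stages with none of the other 3. These patterns were not counted over the whole lists either.

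Where a peak was shared by both stages, its place was compared. The Phase 1 lists of RUNX1, Med12 and p300 are longer than the LP lists (38399 against 31995, 39132 against 30020 and 49116 against 36182 peaks), which by itself raises a shared peak counted as a percent of its list. The places were therefore counted among the shared peaks alone, which are equal in number. By that count 41 of 69 RUNX1 peaks had a higher place in Phase 1 (59.4%, 46.9 to 71.1), against 45.9% of all shared RUNX1 peaks: 18 of 37 at Tcra/Tcrd, 14 of 20 at Tcrb and 9 of 12 at Tcrg. For Med12 it was 44 of 64 (68.8%, 55.9 to 79.8), against 44.6%, with 19 of 34, 17 of 19 and 8 of 11 at the 3 loci in the same order. For p300 it was 49 of 82 (59.8%, 48.3 to 70.4), against 45.6%, with 22 of 45, 19 of 24 and 8 of 13. For CTCF it was 42 of 103 (40.8%, 31.2 to 50.9), against 47.8%, with 26 of 70, 16 of 25 and 0 of 8. The intervals of RUNX1, Med12 and p300 lay above the share of all shared peaks, and that of CTCF included it. As a percent of the list, the counts were 51 for RUNX1 (73.9%, against 61.8%), 52 for Med12 (81.2%, against 59%), 61 for p300 (74.4%, against 64.4%) and 41 for CTCF (39.8%, against 45.7%). As a plain number from the top of the list, they were 37, 40, 42 and 42, with no share over all shared peaks given beside them.

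**Figure D2:**
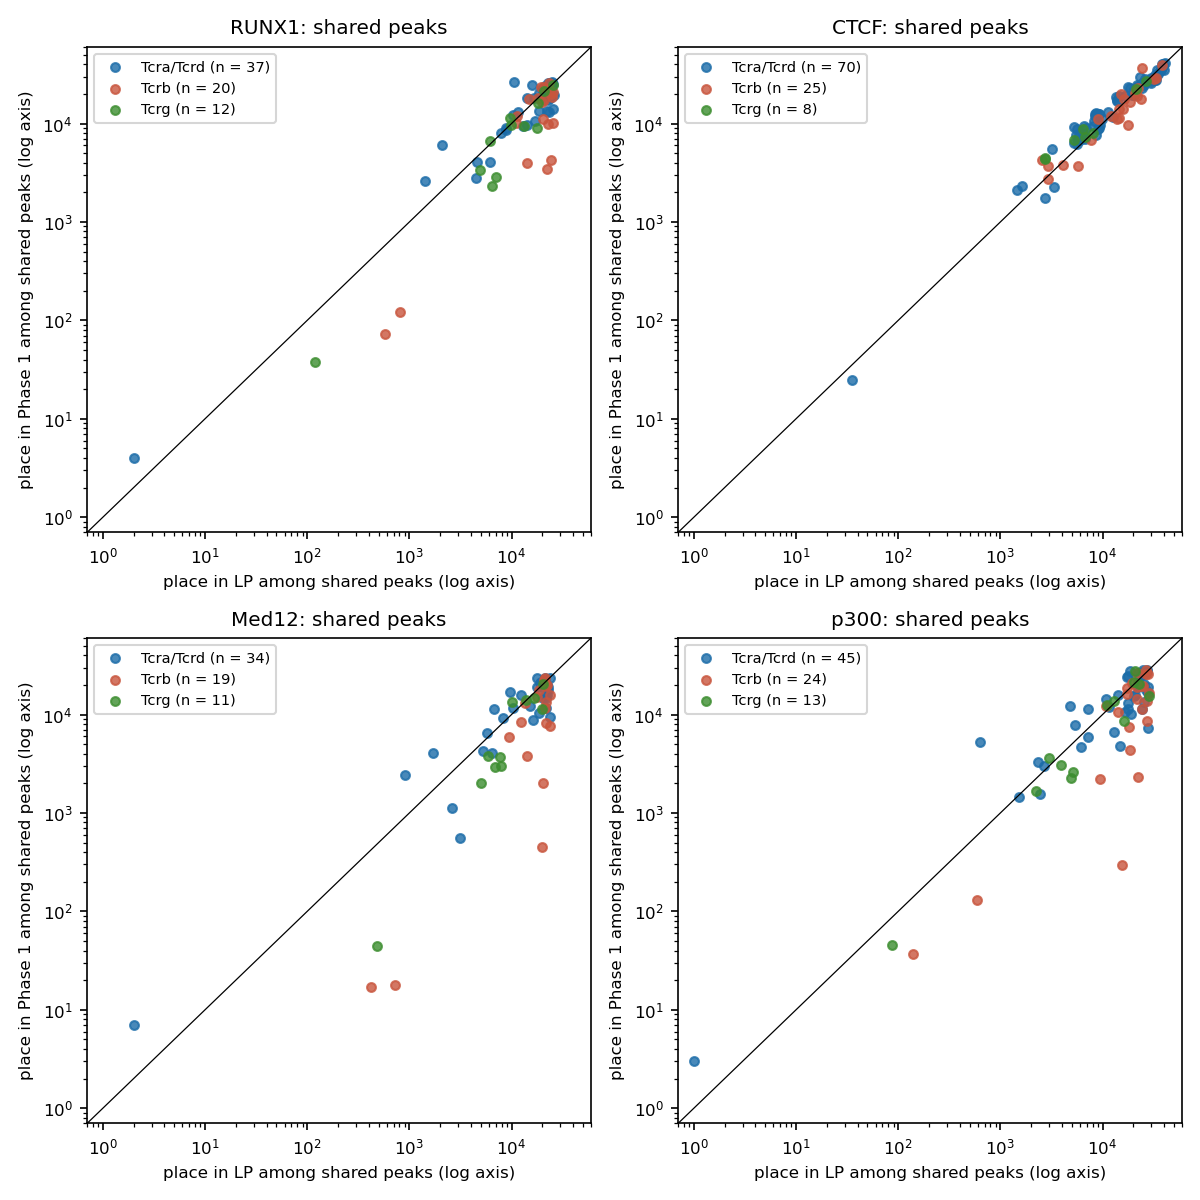
Place of each shared peak among all shared peaks of its factor in LP (x axis) and in Phase 1 (y axis), counted from 1 at the highest score on log axes, by factor and locus; points under the line have a higher place in Phase 1. RUNX1 lies under the line in 14 of 20 peaks at Tcrb and 18 of 37 at Tcra/Tcrd, and CTCF peaks follow the line.

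Of the 144 V genes, 28 had an LP RUNX1 peak centre within 1 kb of the segment start (19.4%, 13.3 to 26.9) and 32 a Phase 1 peak (22.2%, 15.7 to 29.9). Over all protein-coding genes the shares were 45.2% and 45.9%. For CTCF the order was the other way, with 53 V genes in LP (36.8%, 28.9 to 45.2) and 51 in Phase 1 (35.4%, 27.6 to 43.8), against 22.2% and 21.1% of protein-coding genes. A RUNX1 peak was found at a larger share of the V genes of Tcrb, 11 of 22 in LP and 14 of 22 in Phase 1, than of Tcra/Tcrd, 16 and 17 of 115. In LP, 14 V genes had both CTCF and RUNX1, 39 had CTCF and no RUNX1, and 14 had RUNX1 and no CTCF. The Tcrb V genes with RUNX1 in Phase 1 and not in LP were Trbv5, Trbv14, Trbv15, Trbv19 and Trbv26. Those with RUNX1 in LP and not in Phase 1 were Trbv12-2 and Trbv13-3. At Tcra/Tcrd, 5 V genes had RUNX1 in Phase 1 only and 4 in LP only. Of 34 V pseudogenes, which cannot give a receptor chain, 6 had an LP RUNX1 peak and 7 an LP CTCF peak. Within 500 bp, 16 V genes had an LP RUNX1 peak and 18 a Phase 1 peak. The share of protein-coding genes at that distance was not counted.

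The exact matches to the CTCF consensus at CTCF peaks of the loci lay on the plus strand. Of the LP CTCF peaks 16 of 111 held the exact CTCF consensus in the 200 bases around the centre (14.4%, 8.47 to 22.4), against 16.6% of the list, and in Phase 1 16 of 110 did (14.5%, 8.55 to 22.5), against 16.6%. In LP all 16 had it on the plus strand (100%, 79.4 to 100), 11 at Tcra/Tcrd and 5 at Tcrb, against 49.2% of such peaks over the list, and all 16 did in Phase 1, against 49.1%. With 1 mismatch allowed, 63 of 111 LP peaks (56.8%, 47.0 to 66.1) and 63 of 110 Phase 1 peaks (57.3%, 47.5 to 66.7) held it, against 62.9% and 63.4%. Among those with matches on 1 strand only, 53 of 61 in LP (86.9%, 75.8 to 94.2) and 54 of 61 in Phase 1 (88.5%, 77.8 to 95.3) had it on the plus strand, against 49.7% over each list. In LP, 39 peaks of Tcra/Tcrd had matches on the plus strand only, 5 on the minus strand only and 2 on both. Tcrb had 11 and 3, and Tcrg 3 and 0. CTCF peaks at copies of the same V sequence are not independent of each other in these counts, which the intervals do not cover. The site of Tcra/Tcrd with the highest score among those with an exact match lies in a Dad1 intron at chr14:54239216-54239275, and that of Tcrb at chr6:41137150-41137209. Both are shown for the direction of the match, with capitals on the consensus as read from the plus strand.
CTCF site of Tcra/Tcrd: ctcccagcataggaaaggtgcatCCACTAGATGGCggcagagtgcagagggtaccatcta
CTCF site of Tcrb: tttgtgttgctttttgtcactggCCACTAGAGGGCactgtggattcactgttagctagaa
Of the V genes, 114 of 115 at Tcra/Tcrd and 21 of 22 at Tcrb are annotated on the plus strand as well, and no CTCF peak at Tcrg held an exact match within the 200 bases around its centre.

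The RUNX string TGTGGT, on either strand, was present in 56 of 90 LP RUNX1 peaks at the loci (62.2%, 51.4 to 72.2), against 36.6% of the list, and in 66 of 104 Phase 1 peaks (63.5%, 53.4 to 72.7), against 42.5%. At Tcra/Tcrd the shares were highest, 35 of 51 in LP and 44 of 57 in Phase 1, and at Tcrg they were 7 of 15 and 6 of 17. The ETS string AGGAAG was present in 42 LP peaks (46.7%, 36.1 to 57.5) and 49 Phase 1 peaks (47.1%, 37.2 to 57.2), against 41.8% and 41.5%. The E-box string CAGGTG, whose letters can overlap those of ACCACA as they do at the Tcra site above, was present in 24 LP peaks (26.7%, 17.9 to 37.0) and 23 Phase 1 peaks (22.1%, 14.6 to 31.3), against 17.6% and 15.5%. Peaks that share repeated V sequence are not independent of each other in these counts.

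The Notch1-IC lists were short and held few but recurring sites of the loci. LP had 21 members in a list of 1585, Phase 1 had 9 in 152, and Phase 2 had 7 in 352. The Tcra enhancer site had Notch1-IC peaks in all 3 lists, at places 36, 102 and 101. The Tcrb enhancer site had them at places 523, 72 and 36. The sites after Tcrg-C1 (places 950, 78 and 179), Tcrg-C3 (1535, 87 and 272) and Tcrg-C4 (1206, 24 and 166) were also in all 3, and the site after Tcrg-C2 was in the LP list only. The site 2.18 kb before Trdd1 was in the Phase 1 and Phase 2 lists, at places 48 and 205, and not in LP. The Trbv1 site was in the LP list only, at place 333. Of the 9 Phase 1 members, 8 overlapped an LP peak (88.9%, 51.8 to 99.7), against 36.2% of the Phase 1 list, and 6 a Phase 2 peak (66.7%, 29.9 to 92.5), against 56.6%. All 7 Phase 2 members and 7 of 9 Phase 1 members overlapped a Phase 1 RUNX1 peak, against 74.1% and 85.5% of these lists, while 11 of 21 LP members overlapped an LP RUNX1 peak (52.4%, 29.8 to 74.3), against 89.2%. With peaks of identical sequence and score counted once, as described next, this was 11 of 17 (64.7%, 38.3 to 85.8), against 90.4%. The RBPJ string TGGGAA was present in 5 of 21, 3 of 9 and 2 of 7 members of the LP, Phase 1 and Phase 2 lists, against 13.7%, 55.3% and 50%.

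The LP Notch1-IC peaks without RUNX1 lay mostly at 1 V family. Of the 13 LP members at Tcra/Tcrd, 9 lay within 1 kb of the start of a Trav15 segment, on 6 of the 9 Trav15 segments, and 2 of these 9 overlapped an LP RUNX1 peak. In 6 of them the peak stood 703 to 808 bp after the segment start. The V stretch of Tcra/Tcrd holds long near-identical copies, and 4 pairs of these LP members, 311 kb apart, had the same score and 100% identical sequence: 15.8 at chr14:52851221-52851427 and chr14:53162265-53162471, and 26.8, 26.5 and 32.7 for the others. A Phase 1 pair with score 19.1 was of the same kind. Such a pair cannot be counted as 2 bound places. At Trav15-1-dv6-1, whose peak aligned to those of the Trav15d-1-dv6d-1 and Trav15n-1 copies over 202 bases at 96.5% identity, the Notch1-IC peak (score 28.5) lay in a site with RUNX1, Med12 and p300 peaks in both stages, while the 8 peaks of the 4 pairs overlapped no RUNX1 peak.

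Bins of Tcra/Tcrd with more repeated sequence had fewer peaks. Of all 50-base words of that window 38.3% occurred more than 1 time in it, on either strand, against 11.2% at Tcrb and 8.94% at Tcrg. In 10 bins of 50 kb over 50% of the words were repeated; there the 8 lists of RUNX1, CTCF, Med12 and p300 had 98 peaks per Mb in sum, against 324 in the other 28 bins. A peak of these lists lay within 1 kb of 10 of the 50 V genes in the repeated bins and of 49 of the 65 V genes in the other bins. Between chr14:52816428-52956487, chr14:52956841-53035778 and chr14:53135135-53312453, where 93.1% to 96.8% of the words were repeated, no peak of these 8 lists was found over 37 V genes, and the Notch1-IC lists had 10. The part of repeats in the low counts at V genes was not tested.

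**Figure D3:**
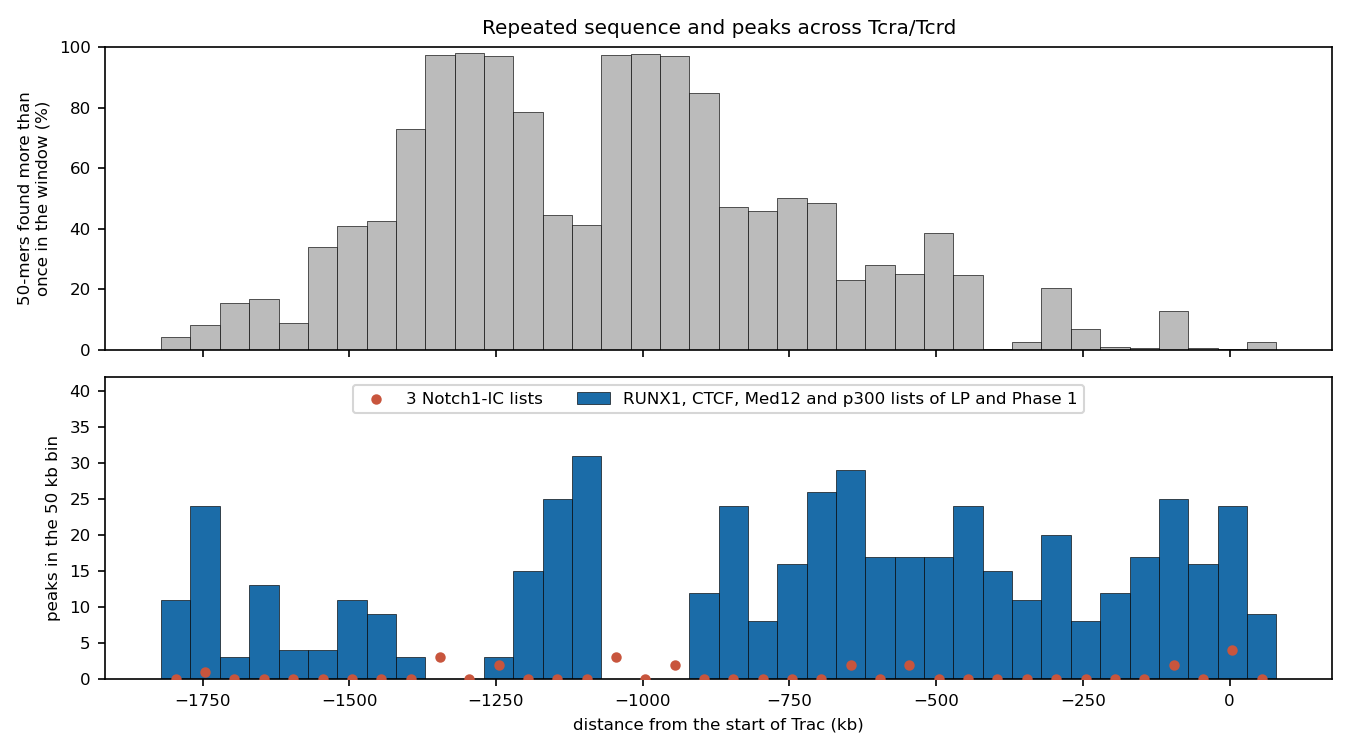
Percent of 50-base words found more than 1 time in the Tcra/Tcrd window (top) and number of peaks (bottom) by 50 kb bin, against distance in kb from the start of Trac. Bars are the 8 lists of RUNX1, CTCF, Med12 and p300 together and points the 3 Notch1-IC lists; the bins with most repeats have few or no bars.

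With guides against Cbfb most Med12 peaks of the loci were missing from the list. The paper cautions that enough cells without Cbfb, Ctcf or Med12 were hard to prepare. Its ChIP-seq of them used as few cells as possible and was noisier than usual, which by its account hampers close analysis. Of 53 Med12 peaks of Phase 1 sgCont cells, 40 had no sgCbfb peak (75.5%, 61.7 to 86.2), against 32.2% of the list. Because promoter peaks, which were mostly kept, made up 42.3% of the list and 3 of the 53 members, the count was also made outside promoters: 39 of 50 had no sgCbfb peak (78%, 64.0 to 88.5), against 50.2%. The members were weak, and the share fell with the score. Outside promoters it was 28 of 34 for scores under 30 (82.4%, 65.5 to 93.2), against 60.2%, and 11 of 16 for scores of at least 30 (68.8%, 41.3 to 89.0), against 37%. Of the 53 peaks, 49 overlapped a Phase 1 RUNX1 peak, against 94.4% of the list. The lost members had a median score of 18.9 and the kept ones of 45.7.

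The site after Tcrg-C4, which is no promoter, had a Med12 score of 102.3 in sgCont (place 1416) and no peak in sgCbfb. Over the list, promoter peaks included, 2.64% of peaks with a score of at least 100 had none. That share was not counted outside promoters, where 37% of peaks with a score of at least 30 had none. The sites after the other 3 Tcrg C segments (scores 36.7, 24 and 36.9), the 3 sites of the Tcrd D, J and C stretch (42.3, 32.7 and 22), the Trbd2 site (39.8) and the Trbv10 site (61.0) had no sgCbfb peak either. The Tcra enhancer site was kept, at place 139 in sgCont (score 191.9) and 1421 in sgCbfb (106.2), as were the Tcrb enhancer site, at 367 and 7172, and the Trbv1 site, at 1427 and 8498. The Dad1 promoter, which belongs to a housekeeping gene next to the locus, had places 1036 and 799. Of the 20 sgCbfb members 7 had no sgCont peak (35%, 15.4 to 59.2), against 28.6%, and 5 of these 7 overlapped a Phase 1 CTCF peak (71.4%, 29.0 to 96.3), against 44.5% of such peaks; they lay, among others, 0.21 kb before Tcrg-V7 (score 24.1), 1.96 kb before Traj61 (15.7) and in the Dad1 intron (27.8). The 2 highest of the 7 had no peak of any other list: 1 in a Trac intron (36.9) and 1 at the start of Trbv31 (33.6).

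**Figure D4:**
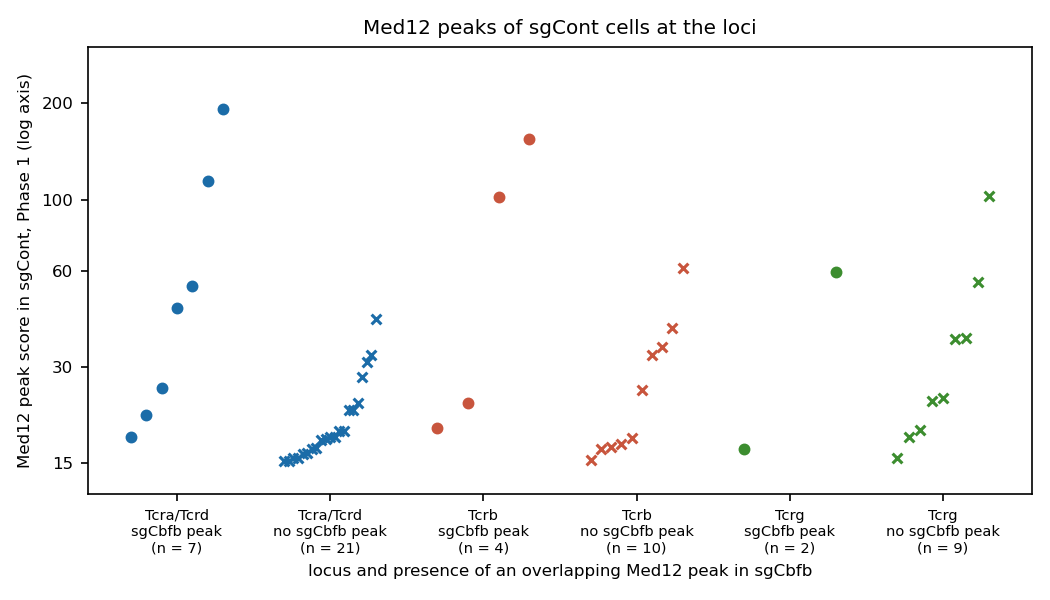
Med12 peak score in Phase 1 sgCont cells (log axis) for the 53 peaks at the loci, by locus and by whether an sgCbfb peak overlapped it (circles) or not (crosses). Crosses outnumber circles at each locus (21 against 7, 10 against 4 and 9 against 2), and the highest cross is the site after Tcrg-C4 at 102.3.

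The RUNX1 lists of cells with guides held few members. The paper's caution on cell number and noise covers the sgCTCF and sgMed12 lists too. In LP the Tcra enhancer site was the only one, at place 3 of 975 with sgCont (score 74.4) and place 7 of 874 with sgCTCF (60.8). In Phase 1 it stood at place 12 of 1550 with sgCont (79.6) and place 2 of 2094 with sgMed12 (68.4). Of the 8 sgCont members, 2 had no sgMed12 peak (25%, 3.19 to 65.1), against 29% of the list. These were the Trbv10 site (score 18.6) and the Trbv12-1 site (17), close to the minimum score of 15, and with scores of at least 30 in both lists 0 of 4 were missing. The kept ones were the Tcra site and its neighbour 12.96 kb after Trac, the Trdd1 site, the Tcrb enhancer and Trbv1 sites and the site after Tcrg-C4. At the Tcrb enhancer the sgCont peak (chr6:41554370-41554720, score 55.8) and the sgMed12 peak (chr6:41554677-41554935, score 34.4) overlapped only at their edges. Of the 8 sgMed12 members 2 had no sgCont peak (25%, 3.19 to 65.1), against 47.4%, and with scores of at least 30 it was 0 of 4. They were the site after Tcrg-C1 (15.5) and a site 1.38 kb before Trav2 (16.7). Under the stricter overlap rule given below, 3 of 8 sgCont members had no sgMed12 peak (37.5%, 8.52 to 75.5). By that rule 3 of 8 sgMed12 members had no sgCont peak (37.5%, 8.52 to 75.5). Both counts of 0 of 4 treat the Tcrb enhancer peaks as overlapping, and they were not repeated under that rule. The list shares were not counted with scores of at least 30 or under that rule.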

How the data were processed

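RUNX1, CTCF, Med12, p300 and Notch1-IC were mapped by ChIP-seq in 34 samples, with 4 input samples. Per the submitters' processing notes and the study's methods, the authors aligned reads with Bowtie 1.1.1 to mm10, keeping reads with up to 10 placements, called peaks with HOMER against a control, kept peaks reproducible over the 2 replicates and with a score of at least 15, and annotated them. The deposited peak score is a depth-normalised height; starts and ends are mm10 positions, and no peak ran past a chromosome end of GRCm38.p6. Each list is 1 combined value per group, from 2 biological replicates per the study's methods.

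Here peaks were read with pandas 2.3.3; overlap meant at least 1 bp. Strings were searched with pysam 0.24.0 on both strands, intervals computed with scipy 1.17.1, and alignments made with Biopython 1.88. Overlap and string counts were tested on simulated data. Sites to name were drawn from every RUNX1 site between the first D or J segment and 30 kb after the last C. They were also drawn from the 3 highest-scored members of each locus in each LP and Phase 1 list. RUNX1 members of 1 stage and members of the Notch1-IC and guide lists were used too, of classes over 10 the highest. Not every such site is named. The Trav15 and repeat counts and 5 alternatives were added after values were seen. The members and lists were chosen with earlier results of these data known.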

Additional observations from a re-analysis of the deposited data

How the results depend on the processing

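Of 132 values under alternatives, 99 stayed inside the exact 95% interval of the value reported, among them each value with overlap of at least 50% of the shorter peak, with promoters left out, with windows set to the segment span and 50 kb, and with strings in the whole peak. With scores of at least 30 in both lists, the peaks of 1 stage were 46.4% for Phase 1 RUNX1 (24.6% of the list), 2.15% for LP CTCF (6.66%), 19.0% for LP Med12 (18.7%), 50% for Phase 1 Med12 (30.7%) and 41.9% for Phase 1 p300 (35.9%), and 0% of the Phase 1 RUNX1 peaks with guides were lost or gained with sgMed12. No list share was counted for those peaks with guides. With the same number of highest-scored peaks, the shares were 25.3% for Phase 1 Med12 (27.4% of the list) and 45.1% for LP p300 (30.9%). Shared peaks placed higher in Phase 1 were 53.6% for RUNX1, 62.5% for Med12 and 51.2% for p300 with the place as a number. No share over all shared peaks is given for that count. Among the shared peaks alone, where both stages have the same number, they were 59.4%, 68.8% and 59.8%, against 45.9%, 44.6% and 45.6% of all shared peaks. With RUNX1 scores of at least 30, overlap in LP was 8.51% with CTCF (23.5% of the list) and 91.5% with Med12. In Phase 1 it was 98.6% with Med12 and 97.1% with p300. The list shares of Med12 and p300 overlap at that score were not counted. With 1 mismatch the CTCF consensus was in 56.8% of LP and 57.3% of Phase 1 CTCF peaks. Within 500 bp of the start, V genes with a peak were 11.1% and 12.5% for RUNX1 in LP and Phase 1. They were 9.03% for Phase 1 Med12, and 18.1% and 14.6% for p300 in LP and Phase 1. Shares of protein-coding genes at that distance were not counted. Without the far chromosome 6 segments, which shortens that span from 27.8 to 3.27 Mb, the immunoglobulin density moved in 7 of 8 lists. Why the other values moved was not tested. Leaving out a replicate could not be done, since each list combines both. No paired analysis was possible because the result comes from no test. Limits: without counts per replicate a peak missing from a list may lie under its score minimum, reads of repeated V segments may not be placed, and intervals cover counting error only.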

Other observations

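The trypsinogen genes, which lie inside Tcrb between Trbv30 and Trbd1 and code for pancreatic digestive enzymes, fill 246 kb with few peaks. RUNX1 had 1 peak there in LP and 1 in Phase 1, Med12 had 1 in each, p300 had 1 and 3, and CTCF had 2 and 1. A stretch of 180 kb there, from chr6:41324922-41505341, had no peak of these 8 lists, and 20.7% of its 50-base words were found more than 1 time in the window. The 237 kb from Trbv2 to Trbv30 next to it had 20 LP and 25 Phase 1 RUNX1 peaks. The site at the end of the trypsinogen stretch with an sgCont Med12 score of 19.4 was kept with sgCbfb (27.1).

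At the other end of Tcra/Tcrd, a site in an exon of the olfactory receptor gene Olfr1509, 23.4 kb after the start of Trav1, had RUNX1 scores of 106.7 in LP and 150.2 in Phase 1 and Med12 scores of 153.0 and 235.0. It had an LP Notch1-IC peak (17.8), and its Med12 peak was present with sgCont (45.7) and with sgCbfb (25.8).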
